A study of Mus musculus with 6 samples.

Results

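A set of 9 genes of striated muscle was followed in mouse ovarian granulosa cells from wild type mice and from mice with knockout alleles of the forkhead transcription factors Foxo1 and Foxo3. These are Ldb3, Myom1, Mybpc3, Myh6, Myh7 and Myl4 of the sarcomere, Pln and Jph1 of muscle calcium handling, and the muscle kinase gene Srpk3. The members were chosen by their intensities on these same arrays, as muscle genes seen to move in the knockout, so their knockout against wild type values below are a description and carry no test. Every probe set with 1 gene symbol in the platform annotation was taken, which gave 19 probe sets for the 9 genes, of 45037 probe sets and 18193 genes measured. A further 2 probe sets that the annotation gives to both Myh6 and Myh7 were not used. The label of the set goes only part of the way with the data. Of the 9 genes, 5 had means at least 2-fold higher in the knockout at day 25, Mybpc3 was lower, and Myh7 and Myl4 differed little.

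A sarcomere is the contractile unit of striated muscle, in which myosin thick filaments slide along actin thin filaments. Thin filaments are anchored at the Z disc and thick filaments are cross-linked at the M-band. Contraction starts when calcium leaves the sarcoplasmic reticulum at junctions with the surface membrane, and ends when the SERCA pump returns it there. Granulosa cells, which nurse the oocyte inside the follicle and make its oestrogen, build no sarcomeres; the nearest muscle-like cells of the follicle are the smooth muscle cells of the outer theca and of vessel walls.

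The cells were profiled on 6 Affymetrix arrays, 2 per group. The groups were wild type mice at day 25 of age, Foxo1/3 dKO mice at day 25 and Foxo1/3 dKO mice at 2 months. As the labels write it, the dKO carried Foxo1 f/- and Foxo3 f/- together with Amhr2-cre, a Cre recombinase driven from the gene of the anti-Müllerian hormone receptor, which granulosa cells express. All groups had a mixed FVB and C57BL/6 background. Wild type cells at 2 months were not analysed here, so at 2 months genotype and age cannot be told apart, and any effect of Cre itself was not tested. The labels do not say whether replicates came from separate mice.

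Values are RMA intensities, and the median probe set lay at 73 or 74 on every array. Foxo1 on its brightest probe set was 10319 and 7666 in wild type, 904 and 2291 in the day 25 dKO, and 126 and 343 in dKO at 2 months. Foxo3 was higher in both dKO groups on its brightest probe set. It gave 1632 and 1342 in wild type, 2539 and 3279 at day 25, and 2484 and 1872 at 2 months. Its other probe sets were also above wild type without overlap at both ages. The labels do not say which part of either gene is removed. The summed intensity of a list of granulosa markers stayed between 107014 and 126772 on the 6 arrays, but a few bright genes such as Inha carry much of it. Of its 12 genes, 3 were higher and 3 lower than wild type without overlap at day 25, beside 26.4% and 19.5% of all genes. At 2 months 4 were higher and 1 lower, beside 26.6% and 17.3%. Foxl2 gave 6165 and 6783 in wild type against 13167 and 8826 at 2 months, and Fst 9065 and 9779 against 4491 and 5571. Across probe sets, the other 5 arrays had r between 0.982 and 0.992 with each other, whereas dKO 2-month replicate 1 was less like them, at 0.964 to 0.978.

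The stretches upstream of 4 members are shown because these genes had clear differences between the groups and hold a CArG box or MEF2 match, described below. Each is the 250 bases before a start site listed by RefSeq on GRCm38.p6, read 5′ to 3′ on the gene's strand, with all motif matches in capitals. They lie at chr14:34588682-34588931 on the minus strand for Ldb3, and on the plus strand at chr17:71019307-71019556 for Myom1, chrX:73774155-73774404 for Srpk3 and chr2:91117894-91118143 for Mybpc3.
Ldb3: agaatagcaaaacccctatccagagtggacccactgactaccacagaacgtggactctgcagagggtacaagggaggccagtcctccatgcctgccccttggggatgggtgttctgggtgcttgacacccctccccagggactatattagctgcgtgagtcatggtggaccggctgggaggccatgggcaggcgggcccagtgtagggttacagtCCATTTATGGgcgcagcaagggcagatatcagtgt
Myom1: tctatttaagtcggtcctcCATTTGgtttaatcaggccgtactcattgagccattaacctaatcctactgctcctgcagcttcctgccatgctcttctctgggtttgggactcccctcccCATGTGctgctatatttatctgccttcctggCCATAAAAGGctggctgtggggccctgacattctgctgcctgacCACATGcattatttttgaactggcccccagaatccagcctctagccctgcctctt
Srpk3: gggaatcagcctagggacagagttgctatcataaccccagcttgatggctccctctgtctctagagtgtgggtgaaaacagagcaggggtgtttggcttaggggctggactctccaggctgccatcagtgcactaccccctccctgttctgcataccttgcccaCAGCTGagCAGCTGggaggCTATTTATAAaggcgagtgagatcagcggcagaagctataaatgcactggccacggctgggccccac
Mybpc3: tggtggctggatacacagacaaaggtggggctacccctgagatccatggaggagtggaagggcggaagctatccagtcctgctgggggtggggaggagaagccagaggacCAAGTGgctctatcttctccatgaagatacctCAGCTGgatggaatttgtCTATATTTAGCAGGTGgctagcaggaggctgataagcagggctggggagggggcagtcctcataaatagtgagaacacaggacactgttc

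Of the 9 members, 8 matched a RefSeq promoter entry, and the search covered 300 bases from 250 before to 50 after the start, on both strands. The CArG box, bound by serum response factor, matched at position -35 for Ldb3 and -99 for Myom1, counted from the start site. From the other listed start site of Ldb3, the same match lies at -109. The box was found for 2 of 8 members, and 1.63% of 32817 RefSeq promoters of the same length hold it. The 8 members had 10 promoters. Members were counted per gene, with a match in any of its promoters, whereas these shares are per promoter. The MEF2 site matched at -67 for Srpk3 and at -90 for Mybpc3, in 2 of 8 members against 3.19% of all promoters. E-boxes (CANNTG), the site of MyoD-type factors, matched in 6 of 8 members against 72.3% of all promoters. In the Mybpc3 stretch an E-box adjoins the MEF2 match, and no 2 matches overlapped in the 4 stretches. The FOXO core TGTTTAC (3.65% of all promoters) and the NR5A site AAGGTCA (4.72%) matched in 0 of 8 members, which says only that these letters are not in these windows. A match is a description of the letters and not evidence of binding.

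At the Z disc and M-band, the brightest probe sets of both genes were several-fold higher in every dKO array than in either wild type array. Ldb3 encodes a PDZ and LIM domain protein that binds alpha-actinin at the Z disc. Its intensity was 25 and 33 in wild type, 316 and 222 in the day 25 dKO, and 488 and 313 in dKO at 2 months. Neither dKO group overlapped wild type, and the ratio of mean intensities to wild type was 9.28 at day 25 and 13.8 at 2 months, with log2 differences of 3.16 ± 0.30 (SE) and 3.72 ± 0.30. Wild type Ldb3 lay below the array median, and with a pseudocount of 16 the day 25 log2 difference was 2.65. A second Ldb3 probe set went from 40 on both wild type arrays to 81 and 78 at day 25, and 92 and 84 at 2 months. The third gave values from 23 to 31 and did not separate the groups.

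Myom1 encodes myomesin 1, which cross-links myosin filaments and binds titin at the M-band. Its only probe set gave 88 and 91 in wild type, 524 and 394 in the day 25 dKO, and 941 and 479 in dKO at 2 months. The ratio of means to wild type was 5.13 at day 25 and 7.93 at 2 months, with no overlap in either case. The 2-month mean of 710 ± 327 (SD, n = 2) rests in part on replicate 1, the array that stood apart; replicate 2 alone lay within the day 25 range. The order of the levels was therefore wild type, then the dKO groups, whose values overlapped each other.

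**Figure D1:**
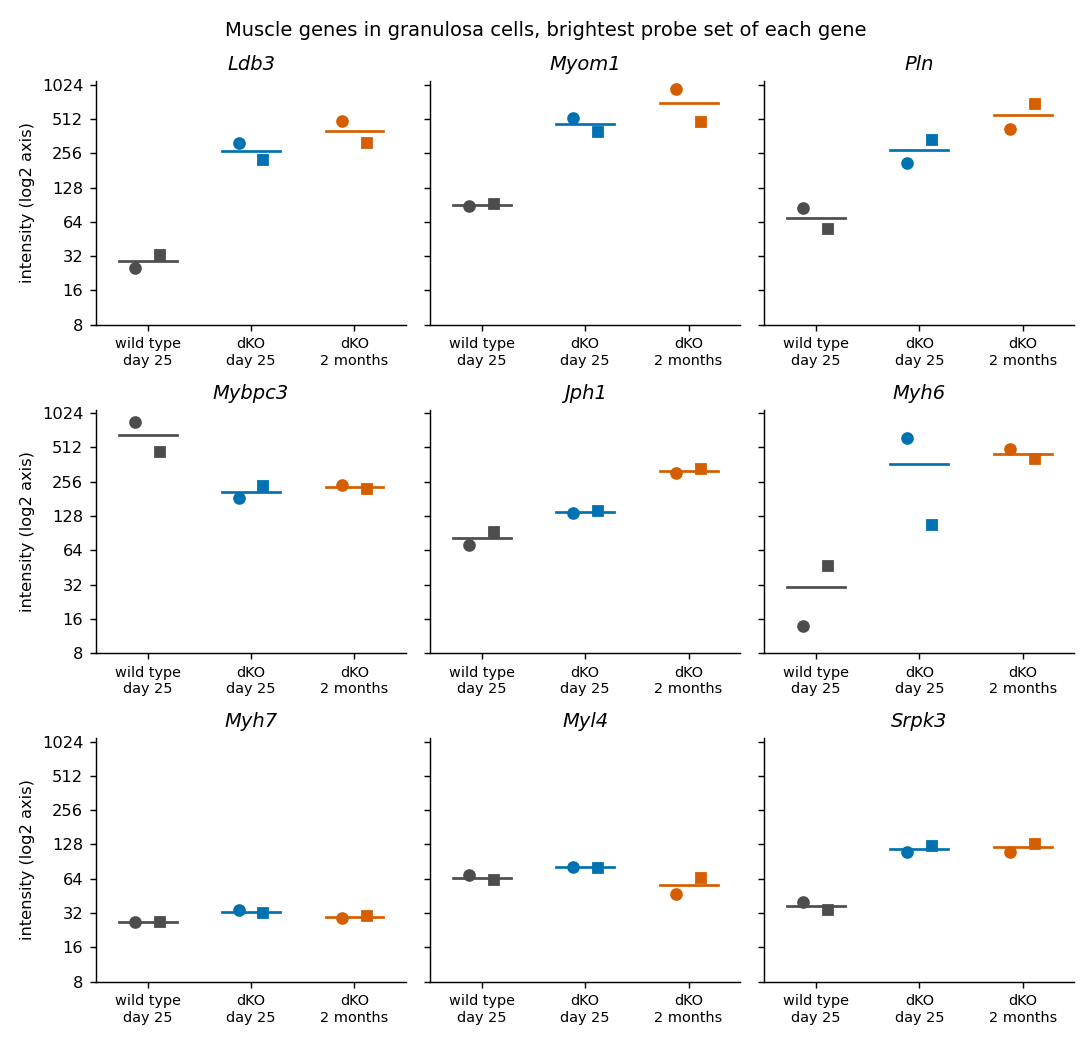
Intensity of the brightest probe set of each muscle gene on each array (log2 axis), with circles for replicate 1, squares for replicate 2 and bars for the mean of 2 arrays. Ldb3 goes from 25 and 33 in wild type to between 222 and 488 on the 4 dKO arrays, while Mybpc3 goes from 853 and 470 to between 183 and 240, and Myh7 stays between 27 and 34.

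The members of the thick filament did not all differ in the same direction. Mybpc3, the cardiac myosin-binding protein C of the thick filament, was lower in the dKO. It gave 853 and 470 in wild type, 183 and 236 in the day 25 dKO, and 240 and 221 in dKO at 2 months. No dKO value reached the lower wild type one, and the wild type mean was 3.16 times the day 25 dKO mean. The log2 differences from wild type were -1.60 ± 0.31 (SE) at day 25 and -1.46 ± 0.31 at 2 months.

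Myh6, the alpha heavy chain of cardiac myosin, had a ratio of means of 11.9 at day 25 on its brightest probe set, with the widest spread of the 9 genes. Its values were 14 and 47 in wild type, 619 and 107 in the day 25 dKO, and 491 and 408 in dKO at 2 months. Neither dKO group overlapped wild type, but the day 25 mean of 363 ± 362 (SD, n = 2) was set by replicate 1. The log2 difference at day 25 was 3.27 ± 0.98 (SE), with 2.01 when dKO day 25 replicate 1 was left out and 4.53 when replicate 2 was. Myh6 was above Ldb3 with all arrays, but without replicate 1 it was below Ldb3 (2.91), Pln (2.27) and Myom1 (2.13). The other Myh6 probe set was at 8 or 9 on all arrays. Myh6 and Myh7 are close copies of each other, so probes may take up RNA of both.

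Myh7, the beta heavy chain encoded next to Myh6, stayed dim, at 27 on both wild type arrays, 34 and 32 in the day 25 dKO, and 29 and 30 at 2 months. The day 25 values lay above wild type without overlap, but the ratio was 1.22. Myl4, an essential light chain of atrial and embryonic muscle, gave 69 and 62 in wild type, 82 and 80 at day 25, and 47 and 65 at 2 months. A second Myl4 probe set ranged from 45 to 51. These 2 genes therefore showed small differences at intensities below or near the array median.

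Both calcium handling members were higher in the dKO, and higher again at 2 months. Pln encodes phospholamban, the small membrane protein that inhibits the SERCA2 pump. Its brightest probe set gave 84 and 55 in wild type, 212 and 332 in the day 25 dKO, and 419 and 685 in dKO at 2 months. The 3 groups did not overlap, and the ratio of means to wild type was 3.91 at day 25 and 7.94 at 2 months. All 3 Pln probe sets ran the same way. The second gave 58 and 46, then 177 and 263, then 268 and 606; the dimmest gave 29 and 34, then 51 and 70, then 78 and 118.

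Jph1 encodes junctophilin 1, which holds the sarcoplasmic reticulum close to the surface membrane. Its brighter probe set gave 71 and 92 in wild type, 136 and 143 in the day 25 dKO, and 302 and 330 in dKO at 2 months. These 3 groups were also separate, with ratios to wild type of 1.71 and 3.88. The dimmer one gave 69 and 79 in wild type, 69 and 70 at day 25, and 71 and 82 at 2 months. It overlapped wild type at both ages, and its 2-month values lay above those of day 25. The difference from wild type therefore rests on 1 of the 2 Jph1 probe sets, and the cause of the disagreement was not tested.

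Srpk3 encodes a kinase of splicing factors of the SR family that is known from muscle, where MEF2 drives it. Its brightest probe set gave 40 and 34 in wild type, 110 and 124 in the day 25 dKO, and 111 and 130 at 2 months. The ratio to wild type was 3.16 at day 25 and 3.26 at 2 months, and the dKO groups overlapped each other. This probe set has an ID ending in _s_at, which Affymetrix uses for probes that can match more than 1 transcript. Of the other 3 Srpk3 probe sets, the next brightest gave 28 on both wild type arrays and between 30 and 37 on the dKO arrays, and the others stayed between 8 and 19. On the brightest Srpk3 probe set without that ending, the day 25 log2 difference was 0.12 in place of 1.64.

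**Figure D2:**
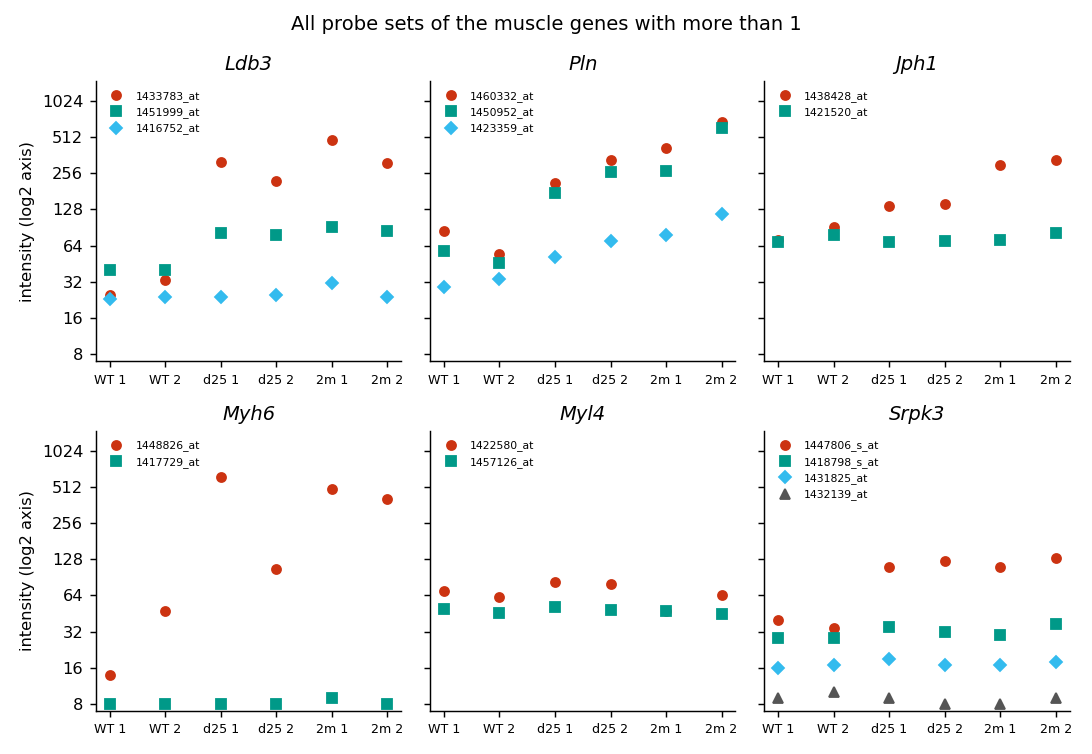
Intensity of every probe set of the 6 genes that have more than 1 (log2 axis), by array, with wild type (WT), dKO day 25 (d25) and dKO 2 months (2m) replicates 1 and 2. The 3 Pln probe sets separate wild type from dKO, whereas Jph1 and Myh6 separate on 1 of 2 probe sets each, at between 69 and 82 and at 8 or 9 on the other.

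Counted over the brightest probe sets at day 25, 8 of 9 members were higher in dKO without overlap and 1 lower, against 26.4% and 19.5% of all 18193 genes. Means at least 2-fold higher were seen for 5 of 9 members, against 2.9% of all genes. At 2 months against wild type, 7 of 9 were higher without overlap (26.6% of all genes) and 1 lower (17.3%), and 6 of 9 had means at least 2-fold higher (3.63%). Since the same contrasts chose the members, these counts are printed only beside their background. The median log2 difference of the 9 members was 1.64 at day 25 and 1.95 at 2 months, beside 0.03 and 0.04 over all genes. Without dKO 2-month replicate 1, the median at 2 months was 2.02 and the number of members at least 2-fold higher was again 6. Over all 19 member probe sets the medians were 0.30 and 0.24, and 6 probe sets overlapped between the groups at day 25 and 7 at 2 months. The brightest probe set was picked over all arrays, which favours one that is high in any group. The 2 comparisons share the wild type arrays.

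Both dKO ages were in view when the members were chosen, so the members' differences by age are also a description and carry no test. Pln and Jph1 were higher at 2 months than at day 25 without overlap, and Myh7 and Myl4 lower, whereas the other 5 genes overlapped. That is 2 of 9 members higher and 2 of 9 lower, beside 19.7% and 17% of all genes. On the log2 scale Jph1 differed by 1.17 ± 0.15 (SE), Pln by 1.01 ± 0.37 and Myl4 by -0.54 ± 0.18. Of all genes, 0% passed in limma, where the smallest adjusted p was 0.712 and 2514 probe sets had p under 0.05 before adjustment.

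Myh7 differed by -0.16 ± 0.09 (SE), a small difference between groups that did not overlap. Among the 5 genes whose ages overlapped, Ldb3 differed by 0.56 ± 0.30, Myom1 by 0.56 ± 0.35, Myh6 by 0.79 ± 0.98, Mybpc3 by 0.15 ± 0.31 and Srpk3 by 0.04 ± 0.15. The median over the 9 members was 0.56, beside 0.02 over all genes. It was 0.15 without dKO 2-month replicate 1 and 0.31 without dKO day 25 replicate 2. With dKO day 25 replicate 2 left out, Myh6 had a difference of -0.47 in place of 0.79.

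**Figure D3:**
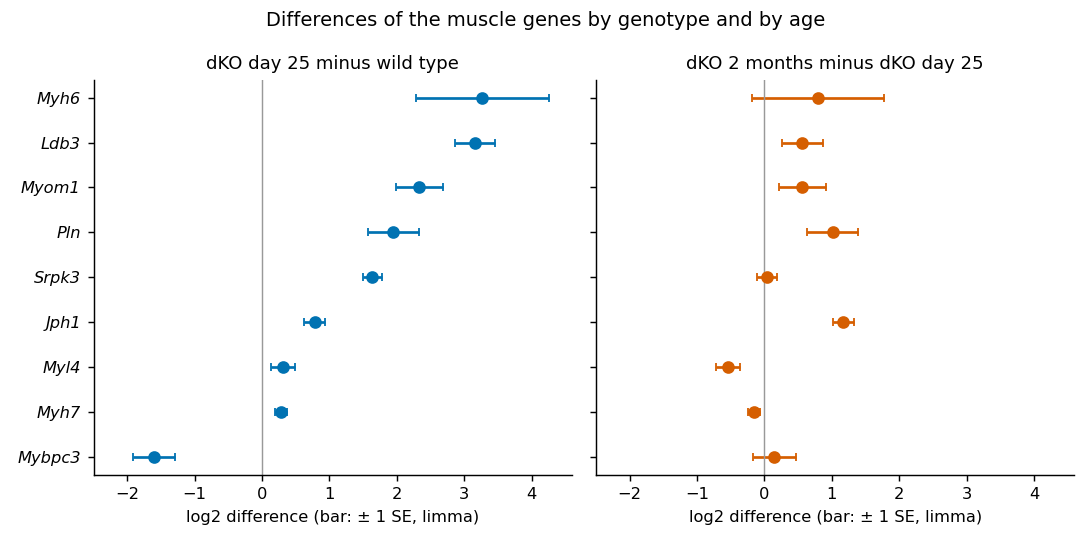
Log2 differences of the 9 genes on their brightest probe sets, for dKO day 25 minus wild type (left) and dKO 2 months minus dKO day 25 (right), with bars of 1 SE from the limma fit. By genotype the genes run from -1.60 for Mybpc3 to 3.27 for Myh6, and by age from -0.54 for Myl4 to 1.17 for Jph1.

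The other genes of the same structures, from lists of known sarcomere and calcium genes, mostly showed small differences at day 25. In limma 0 of them passed, as 0% of genes did; the smallest adjusted p was 0.367, and 3668 probe sets had p under 0.05 before adjustment. At that unadjusted level, 4.89% of all genes were higher and 3.44% lower. Of 22 thick filament and M-band genes, 0 were higher and 1 lower at that level, with a median log2 difference of 0.11. Of 24 Z disc genes, 2 were higher and 0 lower (median 0.06). Myom2, the M-band relative of Myom1, gave 281 and 185 in wild type, 298 and 367 in the day 25 dKO, and 48 and 246 at 2 months. Mylpf, the light chain of fast fibres, gave 68 and 77, then 56 and 46, then 42 and 55. Titin (Ttn), the giant spring of the sarcomere, ranged from 26 to 38 on its brightest probe set. A dimmer Ttn probe set gave 17 and 20 in wild type, 24 and 25 at day 25, and 23 and 25 at 2 months. No other Ttn probe set was above wild type on all 4 dKO arrays. Unc45b, a chaperone of muscle myosin, gave 70 on both wild type arrays, 68 and 113 at day 25, and 262 and 114 at 2 months, and Myh2, a fast myosin heavy chain, gave 125 and 52, then 122 and 162, then 35 and 88. On the brightest probe sets of these 5 genes, Unc45b alone was above wild type on both 2-month arrays and Myom2 alone on both day 25 arrays. Myom1 was above wild type on all 4.

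Among the Z disc genes, Fhl2, a LIM-only cofactor, gave 213 and 280 in wild type, 976 and 651 in the day 25 dKO, and 691 and 1340 at 2 months. Nexn, an actin-binding Z disc protein, gave 1006 and 822, then 2348 and 1742, then 839 and 1321. Fhl2 was thus separate from wild type at both ages and Nexn at day 25 alone. Neb, the ruler of the thin filament, was 517 and 41 in wild type and between 15 and 40 in the dKO, a difference carried by 1 wild type array. Myf5, a muscle determination factor, was 269 and 134 in wild type against 19 and 40 at day 25 and 21 and 14 at 2 months. It was the 1 gene of 18 muscle transcription factors and SR protein kinases at that unadjusted level at day 25. Mef2c, of the MEF2 family that drives Srpk3 in muscle, gave 538 and 522, then 932 and 582, then 710 and 825. Srpk2, the broadly expressed relative of Srpk3, gave 779 and 787, then 676 and 693, then 648 and 599. Srpk2 was thus slightly lower in every dKO array, where Srpk3 was higher.

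Among the partners of Pln and Jph1 in calcium release and storage, several had higher dKO values. Of 26 measured genes of muscle calcium handling, 20 had higher dKO means at day 25. Without adjustment, 3 had p under 0.05 in limma and a higher level, and 0 a lower one, beside 4.89% and 3.44% of all genes. The median log2 difference was 0.15, beside 0.03 over all genes. Without overlap, 11 of the 26 were higher than wild type and 1 lower, beside 26.4% and 19.5% of all genes. Casq2, the calcium-binding protein of the cardiac reticulum, gave 109 and 111 in wild type, 537 and 327 in the day 25 dKO, and 413 and 246 at 2 months. Trdn, triadin, which links calsequestrin to the ryanodine receptor, gave 41 and 40, then 140 and 85, then 388 and 125. Both were above wild type on every dKO array, with adjusted p = 0.474 and 0.629 at day 25 in limma.

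Slc8a1, the sodium-calcium exchanger, gave 579 and 618 in wild type, 1503 and 941 at day 25, and 1325 and 1346 at 2 months. Ryr2, the cardiac ryanodine receptor, was 55 and 29, then 179 and 52, then 127 and 83, so its day 25 values overlapped wild type. Atp2a2, the SERCA2 pump that phospholamban inhibits, was bright on all arrays, at 9007 and 9023 in wild type, 10223 and 9569 at day 25, and 9539 and 10477 at 2 months. On the log2 scale it differed by 0.13 ± 0.10 (SE) at day 25, beside 1.95 ± 0.37 for Pln.

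Among thin filament genes, Tnnt2 and Tnnc1 of the troponin complex had the largest differences at day 25, and more of the list was higher at 2 months. Tnnt2 gave 26 and 15 in wild type, 380 and 124 in the day 25 dKO, and 483 and 309 at 2 months, with replicate 1 above replicate 2 at day 25 as for Myh6. Tnnc1 gave 170 and 164 in wild type, 4109 and 1847 at day 25, and 344 and 3200 at 2 months. Both were above wild type on every dKO array. Of 16 thin filament genes these were the 2 with a higher level and p under 0.05 before adjustment, and 0 had a lower one (median 0.15). At day 25, 7 of 16 were above wild type without overlap and 3 below, beside 26.4% and 19.5% of all genes. At 2 months 10 of 16 were above and 0 below, beside 26.6% and 17.3%. Means at least 2-fold higher were seen for 2 at day 25 and 4 at 2 months, beside 2.9% and 3.63% of all genes. The median at 2 months was 0.39. Tnnt1, the slow fibre troponin T, gave 124 and 104 in wild type, 153 and 132 at day 25, and 267 and 235 at 2 months. Tpm2, a tropomyosin shared by striated and smooth muscle, gave 904 and 718, then 1166 and 1757, then 3631 and 1121. Between the dKO ages, 4 thin filament genes were higher and 0 lower at p under 0.05 before adjustment, beside 3.73% and 2.91% of all genes.

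**Figure D4:**
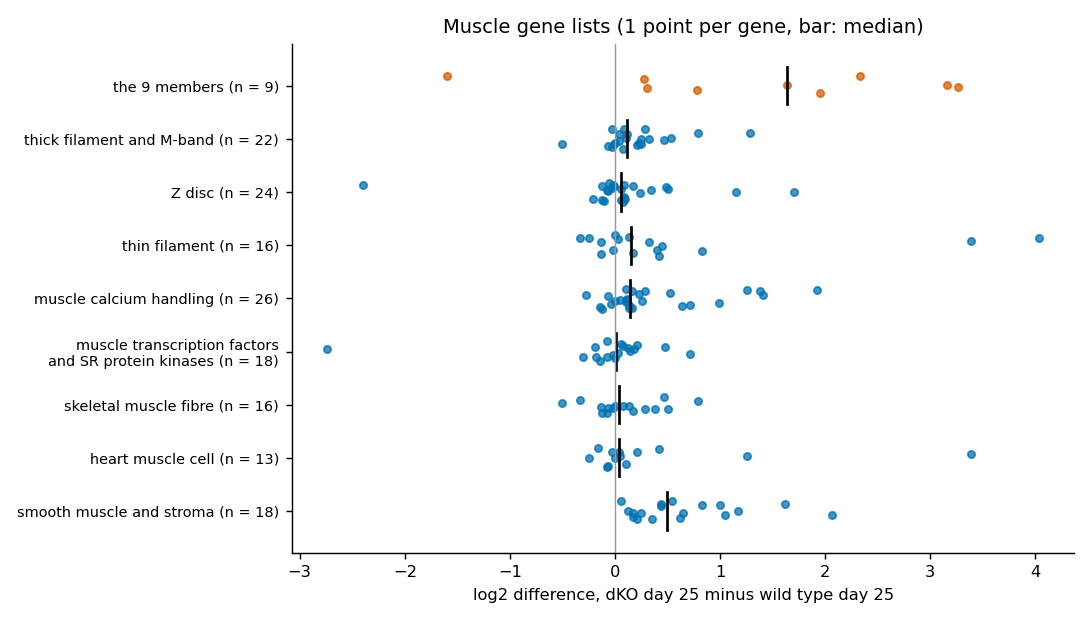
Log2 difference of each gene, dKO day 25 minus wild type, on its brightest probe set, for the 9 members and for lists of muscle genes and muscle cell markers; black bars are medians. The members have a median of 1.64, the sarcomere and calcium lists medians between 0.06 and 0.15, and smooth muscle and stroma a median of 0.49.

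Markers of whole muscle cells were set beside these values. Of 16 skeletal muscle fibre markers, 9 had higher dKO means at day 25, and their summed intensity ran from 901 to 969 in wild type, 1058 to 1139 in the day 25 dKO and 1085 to 1167 at 2 months. The creatine kinase Ckm ranged from 36 to 44 and skeletal actin Acta1 from 36 to 50, whereas the enolase Eno3 gave 238 and 248 in wild type, 316 on both day 25 dKO arrays, and 569 and 323 at 2 months. Of 13 heart muscle markers, 7 had higher means, with sums of 4061 to 4631, 5087 to 6879 and 6783 to 7847, most of it from Tnni3. Tnni3, cardiac troponin I, gave 4180 and 3633, then 5962 and 4536, then 6812 and 5993, and Tnnt2 and Ryr2 of the same list also had higher dKO means. The atrial peptide gene Nppa was at 13 or 14, the ventricular light chain Myl2 ranged from 20 to 22, and Nkx2-5, a heart transcription factor, from 51 to 67, just below the array median. At day 25, 3 of the 16 skeletal markers were higher than wild type without overlap and 4 lower, beside 26.4% and 19.5% of all genes. At 2 months 6 were higher and 1 lower, beside 26.6% and 17.3%. Mylpf, given above, was lower than wild type on every dKO array. Of the 13 heart markers, 2 were higher and 0 lower without overlap at day 25, and 6 and 0 at 2 months. Markers of either muscle thus included genes that were higher in the dKO and genes at like levels in every group. Those of skeletal muscle also included lower ones. RMA gives no zero, so no marker is listed at 0. The part of striated muscle cells in the members' values was not tested.

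Most smooth muscle and stromal markers had higher means than wild type in both dKO groups, as most members did. All 18 had higher dKO means at day 25, 8 of them without overlap, beside 26.4% of all genes. At 2 months 15 had higher means, 13 without overlap (26.6% of all genes), and 1 was lower without overlap (17.3%). Col1a1, Col1a2 and Cspg4 had lower means than wild type at 2 months. Sums were 15827 to 21364 in wild type, 33096 to 38384 in the day 25 dKO and 31066 to 57372 at 2 months. Mylk, the myosin kinase of smooth muscle, gave 1702 and 1849, then 8244 and 6686, then 11151 and 7932. The smooth muscle heavy chain Myh11 gave 229 and 153, then 355 and 397, then 483 and 290, while desmin (Des) stayed between 111 and 123. In bulk samples, fewer or more cells of a type and a change of RNA per cell cannot be told apart. The part of such cells in the members' values was not tested.

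Markers of other cells also differed between the groups. At day 25 higher dKO means were found for 12 of 12 endothelial, 12 of 12 leukocyte and 14 of 14 oocyte markers, and 3 of 6 theca markers. At 2 months the numbers were 12, 12, 2 and 5 in the same order. Leukocyte sums were 1759 and 3518 in wild type, 8247 and 4797 at day 25, and 15955 and 5227 at 2 months. Endothelial sums were 1010 and 1236, then 1285 and 1902, then 3920 and 2011. Oocyte sums were 31317 and 18829, then 44702 and 66526, then 6263 and 35066, and theca sums 20568 and 22685, then 15407 and 27203, then 40905 and 32517. Hsd3b1 carried much of the theca sum, at 15166 and 19069, then 12568 and 18958, then 24919 and 14402. Cyp17a1 of the same list gave 1275 and 1509, then 389 and 5073, then 12804 and 15028. Leukocyte and endothelial sums were highest on dKO 2-month replicate 1, where Ldb3 and Myom1 were also highest, whereas Pln was highest on replicate 2 of that group. On dKO day 25 replicate 2, the dKO array with the most Foxo1 signal and the lowest leukocyte sum, Ldb3, Myom1 and Myh6 had their lowest dKO values and Pln and Srpk3 did not. Their part in the members' differences was not tested.

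**Figure D5:**
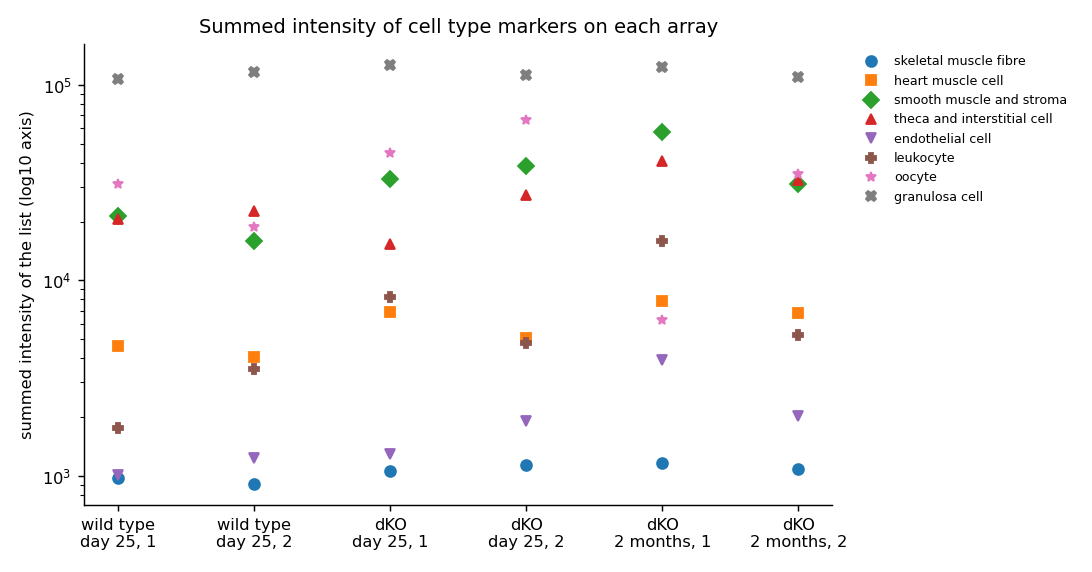
Summed intensity of the measured markers of each cell type on each array (log10 axis). The granulosa sum stays between 107014 and 126772 and the skeletal muscle sum between 901 and 1167. The leukocyte sum goes from 1759 in wild type replicate 1 to 15955 in dKO 2-month replicate 1.

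The genes whose pattern lay nearest to each member were taken by the root mean square difference of log2 values over the 6 arrays, relative to the wild type mean, among 13247 other genes. Smpx, a small protein of striated muscle, was nearest to Ldb3 (0.359), at 44 and 62 in wild type, 421 and 248 at day 25, and 1072 and 491 at 2 months. Lrrc3b (0.381) and Steap4 (0.387) followed. Unc13d (0.191), Pde5a (0.282) and Cryab (0.313), a small heat shock protein abundant in muscle, were nearest to Myom1. Pln lay nearest to Cytip (0.543), then Pde5a (0.574) and Mylk (0.587). Jph1 lay nearest to Mmp12 (0.129), Mgll (0.135) and the endothelial marker Robo4 (0.139), which gave 44 and 50, then 70 and 86, then 192 and 165. Myh6 lay nearest to Serpina3a (0.612), Serpina5 (0.709) and Tnnt2 (0.767), Srpk3 to Lrrc4 (0.129), and Mybpc3 to Col6a4 (0.2). Nearness over 6 arrays in 3 groups describes these arrays, since any gene with the same group means would score well.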

How the data were processed

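Each sample of total RNA was hybridised to 1 Affymetrix array. The authors deposited a whole-number linear intensity for each probe set. RMA and the affy package are named in the submitters' processing notes, with no version. RMA equalises the arrays' distributions, so a common shift of most genes would be hidden; 2 arrays a group limit the precision.

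Values were used as log2(value + 1). Of 45101 probe sets, 64 controls were left out; 34945 of the others had 1 gene symbol in the platform annotation, 932 several and 9160 none. The probe set brightest over all arrays stood for its gene. A limma fit (limma 3.58.1, R 4.3.3) of all 6 arrays, with a mean per group and 3 residual degrees of freedom, gave two-sided tests, Benjamini-Hochberg adjusted over 45037 probe sets at 0.05. On simulated data, the check was that mean estimates lay near the planted log2 shifts. No demand was set on how many shifts were called, so the check does not show how many real differences 2 arrays a group can find. An exact permutation test with 2 arrays a group has a smallest p of 0.333. Replicate arrays may be technical repeats, and p-values then cover technical spread alone.

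The members, gene lists and rules were chosen with earlier results of these data known. Named were all members, Foxo1, Foxo3, up to 4 genes of smallest day 25 p per list with a mean of at least 50 in some group, and up to 3 nearest patterns for each member whose group means spanned 2-fold. Ttn, Tpm2, Atp2a2, Ckm, Acta1, Nppa, Myl2, Nkx2-5 and Des were chosen after their values were seen. Foxl2, Fst, Inha, Col1a1, Col1a2, Cspg4 and Cyp17a1 were also named outside that rule.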

Additional observations from a re-analysis of the deposited data

How the results depend on the processing

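In each of the 3 comparisons 0 probe sets passed under every alternative run: leaving out each array, a pseudocount of 16, centring of the arrays, a dim filter (100 or more on 2 arrays), a trended robust eBayes, a fit to only the 4 arrays in question, and a replicate block. The number of members with means at least 2-fold higher than wild type was 5 at day 25 and 6 at 2 months, and 4 and 4 when all probe sets of each gene were averaged, or 4 and 5 on probe sets without an _x_at or _s_at ending; this count was added after seeing the data.

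The median log2 difference of the 9 members moved more. At day 25 against wild type it was 1.64, and 1.33 with a pseudocount of 16, 0.46 with the mean of all probe sets, 0.78 without _x_at and _s_at probe sets, and 1.52 to 1.75 with 1 array left out. At 2 months against wild type it was 1.95, and 1.775 with a pseudocount of 16, 0.9996 with the mean of all probe sets, and 1.79 to 2.14 with 1 array left out. Between the dKO ages it was 0.56, and 0.28 with the mean of all probe sets and 0.15 to 0.69 with 1 array left out. No median was taken with the dim filter, which kept 7 of the 9 genes.

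The labels do not say that equal replicate numbers mark a shared animal or day. Deviations of same-numbered arrays had r = -0.16 and -0.21 between wild type and the dKO groups and 0.057 between the dKO groups. The paired fit with a replicate block called 0 probe sets in each comparison, and a crossed block, added after seeing the data, called 0 in both comparisons with wild type.

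Of the members, signs differed from the values reported only between the dKO ages, for Myh6, Mybpc3 and Srpk3. Each group had 2 arrays, and 5 of the 9 genes were below the array median on both wild type arrays, so their ratios depend on how RMA treats dim probe sets.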
